A study of Homo sapiens with 8 samples.

Results

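The genes described here encode the extracellular matrix and the proteins that anchor cells to it: collagens, laminins, integrins, matrix-cutting proteases and their inhibitors, collagen-modifying enzymes, and a few further matrix proteins with the growth factor receptor gene PDGFRB. They were chosen by gene symbol, as every symbol of the families COL, LAMA, LAMB, LAMC, ITGA, ITGB, MMP, ADAMTS, TIMP, LOX, P4HA and PLOD that ends in its number (and letter, for integrins), plus FBN1, FBN2, LUM, DCN, SPARC, POSTN, HSPG2, NID1, NID2, AGRN, VCAN, PDGFRB and SERPINH1. The rule found 107 of the 14277 genes listed in the deposited tables. Of these, 105 stood in the day 0 table and 84 in the day 2 table, with 82 in both, and all 84 at day 2 passed the filter on low counts. DCN was in neither table. Below, these are called the matrix genes.

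The samples were H1 cells, an established line of human embryonic stem cells, of 2 genotypes: wild type, and a knockout (KO) of SETD7, which encodes a lysine methyltransferase. The cells were kept in mTeSR, a medium for undifferentiated stem cells, and were driven towards blood-forming fate in a custom medium with added factors, which the labels do not list. At day 0 each genotype had 1 RNA library with values in FPKM (fragments per kilobase of transcript, scaled to library size). At day 2 each genotype had 3 libraries with read counts per gene. All 8 samples carry the same label of hematopoietic differentiation, and genotype was the only labelled difference within a day. How SETD7 was disrupted, whether the KO was 1 clone, and whether the day 2 libraries came from separate cultures is stated in no label, so the p-values measure the spread between these libraries, which may be technical.

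Collagens, laminins and their partners are secreted, assemble outside the cell and are cut and rebuilt by metalloproteinases, while prolyl and lysyl hydroxylases and lysyl oxidases modify and cross-link the collagen chains. Integrins are paired alpha and beta chains in the cell membrane that bind these proteins and connect them to the actin cytoskeleton. In the early embryo, cells leave the pluripotent epithelium through a basement membrane rich in laminin and type IV collagen, and the mesoderm they form lays down fibrillar collagens, fibrillin and versican.

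The day 2 libraries held 27880068 to 39553614 counts, and the biological coefficient of variation over all genes was 4.14%. SETD7 itself stood at 54.8, 56.2 and 55.6 CPM (the gene's counts relative to its library's total, scaled by TMM) in the wild-type libraries and at 32.9, 28.9 and 33.7 CPM in the KO libraries, a log2 fold change of -0.80 (SE 0.058; edgeR quasi-likelihood test, adjusted p = 9.51e-13). At day 0 it was 3.53 FPKM in the wild type and 1.48 in the KO. SETD7 mRNA was therefore lower in every library labelled KO but still present. KO replicate 1, the deepest library, differed more from the other KO libraries than they did from each other (chi-square per degree of freedom over genes 8.98 and 6.12 against 3.05), and it was the highest KO library for 61 of the 84 matrix genes (72.6%), against 35.7% of all genes. The main counts are therefore also given without it.

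At day 2 the matrix genes were mostly higher in the KO. Of the 84 tested, 43 were higher and 4 lower at an adjusted p under 0.05 (edgeR, Benjamini-Hochberg over 11475 genes), and 37 were not called. Over all genes tested, 12.3% were called higher and 11% lower, 23.3% in all, so the share of matrix genes called higher (51.2%) was above that of all genes and the share called lower (4.76%) below it. The fitted log2 fold change (KO minus wild type) was positive for 72 of the 84, with a median of 0.18 against -0.0026 over all genes. The changes were small in size: the median absolute log2 fold change was 0.21 for the matrix genes and 0.096 for all genes. Without KO replicate 1, 42 were higher and 4 lower, with 7 laminins and partners higher, 2 of the other collagens lower and 1 of the remaining matrix proteins lower, and the counts of the other role groups as given below. Without wild-type replicate 2, 44 were higher and 2 lower. Against a minimum change of 1.2-fold (edgeR glmTreat), 10 were higher and 0 lower (19 and 2 at an unadjusted p under 0.05). At an unadjusted p under 0.05, edgeR, DESeq2 and limma-voom each put the same 5 matrix genes lower, COL6A1, COL9A2, FBN1, ITGA6 and LUM, so the role groups described below with none lower had none lower by that measure either. The 3 KO libraries lay wholly above the 3 wild-type libraries for 49 matrix genes and wholly below for 5, where 18.9% and 18.8% of all genes did so.

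The matrix genes took 1.601%, 1.651% and 1.622% of all counts in the wild-type libraries and 1.886%, 1.763% and 1.795% in the KO libraries. Every KO library was above every wild-type library. COL5A1, COL5A2, FBN2 and SPARC together gave 43.4% to 45.2% of these counts in each library. In RNA from whole cultures, more cells of a type and more RNA per cell cannot be told apart.

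**Figure D1:**
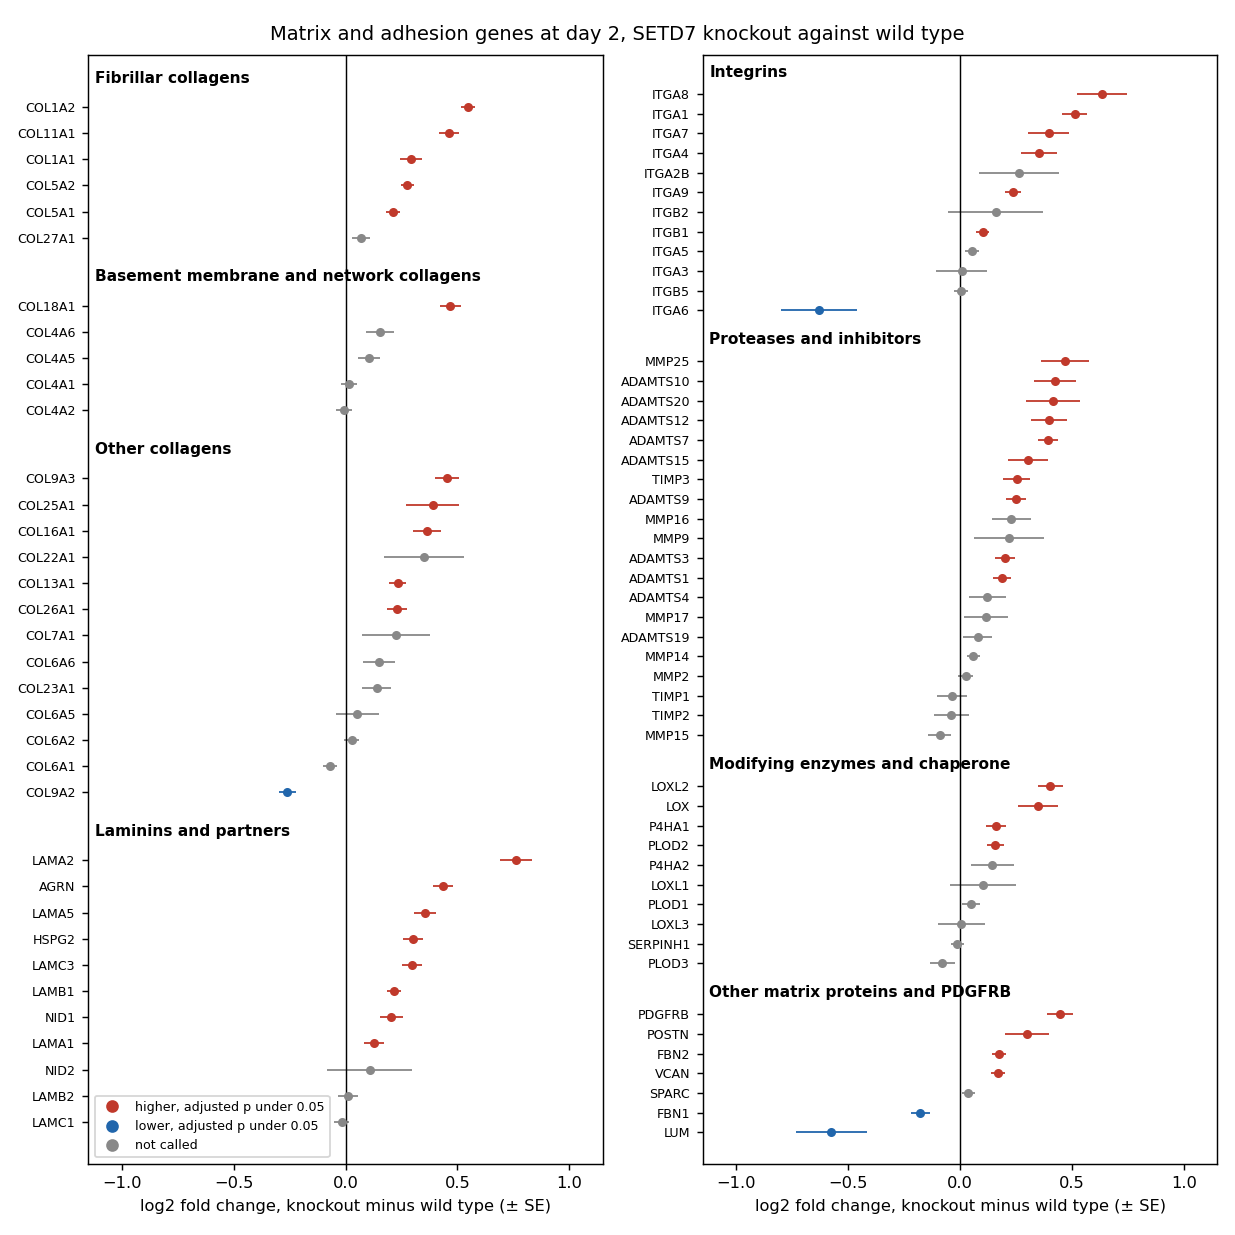
Fitted log2 fold change (KO minus wild type, horizontal axis) of each of the 84 matrix genes at day 2, grouped by role, with bars for 1 standard error. Most points lie to the right of 0, from LAMA2 at 0.76 down, and only ITGA6, LUM, COL9A2 and FBN1 were called lower.

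Promoter sequence is shown for 5 members picked as examples, all with an entry in the RefSeq promoter table. Of these, a fibrillar collagen gene (COL11A1), a laminin gene (LAMA2), a protease gene (ADAMTS7) and an integrin gene (ITGA1) rose. FBN1 is shown as a member that fell. Each run is the 250 bases before the RefSeq start on GRCh38.p14, read 5′ to 3′ on the gene's strand, and capitals mark every match to 4 short motifs on either strand: the CCAAT box (CCAAT), the TATA box (TATAAA), the GC box (GGGCGG) and the core bound by TEAD factors (GGAATG). No window overlaps an exon of GENCODE 29 except for the last 20 bases of the ITGA1 window. The COL11A1 and FBN1 windows lie inside those genes as GENCODE 29 draws them, since its annotated genes start further upstream than the RefSeq start used here.
LAMA2, chr6:128882888-128883137, plus strand: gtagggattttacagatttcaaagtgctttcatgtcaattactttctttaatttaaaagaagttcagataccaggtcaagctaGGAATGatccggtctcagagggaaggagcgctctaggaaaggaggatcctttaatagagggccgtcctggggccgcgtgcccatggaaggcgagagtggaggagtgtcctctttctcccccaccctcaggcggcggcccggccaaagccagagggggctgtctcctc
COL11A1, chr1:103108523-103108772, minus strand: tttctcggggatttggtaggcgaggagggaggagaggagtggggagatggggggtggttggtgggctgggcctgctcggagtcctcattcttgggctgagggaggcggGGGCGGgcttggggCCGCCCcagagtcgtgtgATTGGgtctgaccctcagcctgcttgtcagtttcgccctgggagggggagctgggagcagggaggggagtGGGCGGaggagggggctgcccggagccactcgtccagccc
ADAMTS7, chr15:78811465-78811714, minus strand: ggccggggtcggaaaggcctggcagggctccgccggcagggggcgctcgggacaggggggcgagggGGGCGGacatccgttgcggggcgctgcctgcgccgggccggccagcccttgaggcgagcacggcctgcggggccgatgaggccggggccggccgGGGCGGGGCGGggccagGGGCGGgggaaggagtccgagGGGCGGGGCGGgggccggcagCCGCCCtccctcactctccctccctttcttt
ITGA1, chr5:52787666-52787915, plus strand: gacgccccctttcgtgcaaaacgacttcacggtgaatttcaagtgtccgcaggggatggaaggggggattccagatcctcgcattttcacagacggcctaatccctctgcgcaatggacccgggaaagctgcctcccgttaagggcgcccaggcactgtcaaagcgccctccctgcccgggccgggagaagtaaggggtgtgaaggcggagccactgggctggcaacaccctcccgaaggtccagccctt
FBN1, chr15:48644971-48645220, minus strand: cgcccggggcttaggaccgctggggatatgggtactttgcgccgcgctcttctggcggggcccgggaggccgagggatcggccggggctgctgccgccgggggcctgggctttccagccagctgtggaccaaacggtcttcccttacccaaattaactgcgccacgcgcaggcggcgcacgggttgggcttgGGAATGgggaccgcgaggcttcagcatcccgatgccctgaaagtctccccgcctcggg
The ADAMTS7 window held 7 GC boxes, some of them overlapping, and the COL11A1 window held 3 with 1 CCAAT box. LAMA2 and FBN1, which moved in opposite directions, each held 1 match to the TEAD core and none to the other motifs, and the ITGA1 window held no match. The windows were 53.2% (LAMA2) to 80.8% (ADAMTS7) G and C.

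Promoters of 73 of the 107 members were in the RefSeq table. The GC box was in 67.12% of them, against 42.64% of the 35116 promoters searched. Among members tested at day 2 it was in 72.41% of the 29 that were called higher and in 69.23% of the 26 that were not called. The CCAAT box was in 28.77% of member promoters and 32.01% of all, the TATA box in 10.96% and 10.72%, and the TEAD core in 13.7% and 11.89%. Members were counted by gene, while the 35116 were all RefSeq promoter entries, including genes outside the deposited tables. They were not matched to the members in GC content, and the differences in motif shares were not tested. A match is a run of letters that was not tested for binding, and no match says only that these letters are not in the window.

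The fibrillar collagens, which form the tensile fibers of connective tissue, had 5 of the 6 tested members higher and none lower, with a median log2 fold change of 0.28. COL1A2 (chr7:94394561-94431232 on GRCh38, plus strand) encodes the alpha-2 chain of type I collagen. Its level was 240.0, 247 and 251 CPM in the wild-type libraries and 369, 353 and 358 CPM in the KO libraries. All 3 KO libraries were above all wild-type libraries, with a log2 fold change of 0.55 (SE 0.032, adjusted p = 4.14e-15), the smallest p of any matrix gene. COL1A1, the partner chain, is described after its values were seen: it stood at 61.5, 68.5 and 66.2 CPM in the wild type and 83.6, 75.0 and 81.8 CPM in the KO. The ranges again did not overlap, and the log2 fold change was 0.29 (adjusted p = 2.79e-05). Per kilobase of exon, COL1A2 was at 22.05 CPM and COL1A1 at 6.66 CPM in the wild type.

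COL5A2 and COL5A1 encode type V collagen, a minor component that starts and limits fibril growth in mature tissue, and COL5A2 was the highest collagen gene per kilobase of exon (265 CPM in the wild type, against 151 for COL5A1). COL5A2 (chr2:189031896-189225312, minus strand) had 1971, 2004 and 1941 CPM in the wild type and 2463, 2318 and 2381 CPM in the KO, with no overlap and a log2 fold change of 0.28 (SE 0.029, adjusted p = 8.81e-09). COL5A1 had 1681, 1727 and 1671 CPM against 2080.2, 1886 and 1915 CPM. The KO libraries were again all higher (log2 fold change 0.21, adjusted p = 7.35e-06), with KO replicate 1 the highest. The log2 fold change was 0.17 without that library and 0.11 with trends on GC content and length removed from each library, and the call held in both. COL11A1, of the closely related type XI collagen, rose from 65.6, 69.9 and 67.9 CPM to 97.5, 94.6 and 88.0 CPM (log2 fold change 0.46, SE 0.046, adjusted p = 1.97e-09). COL27A1 was the member that was not called: its log2 fold change was 0.07 (adjusted p = 0.218), or -0.04 with trends on GC content and length removed, and its KO libraries of 225, 201 and 198 CPM overlapped the wild-type range of 195 to 201 CPM. COL3A1, the neighbor of COL5A2 on chromosome 2, was measured at day 0 only.

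**Figure D2:**
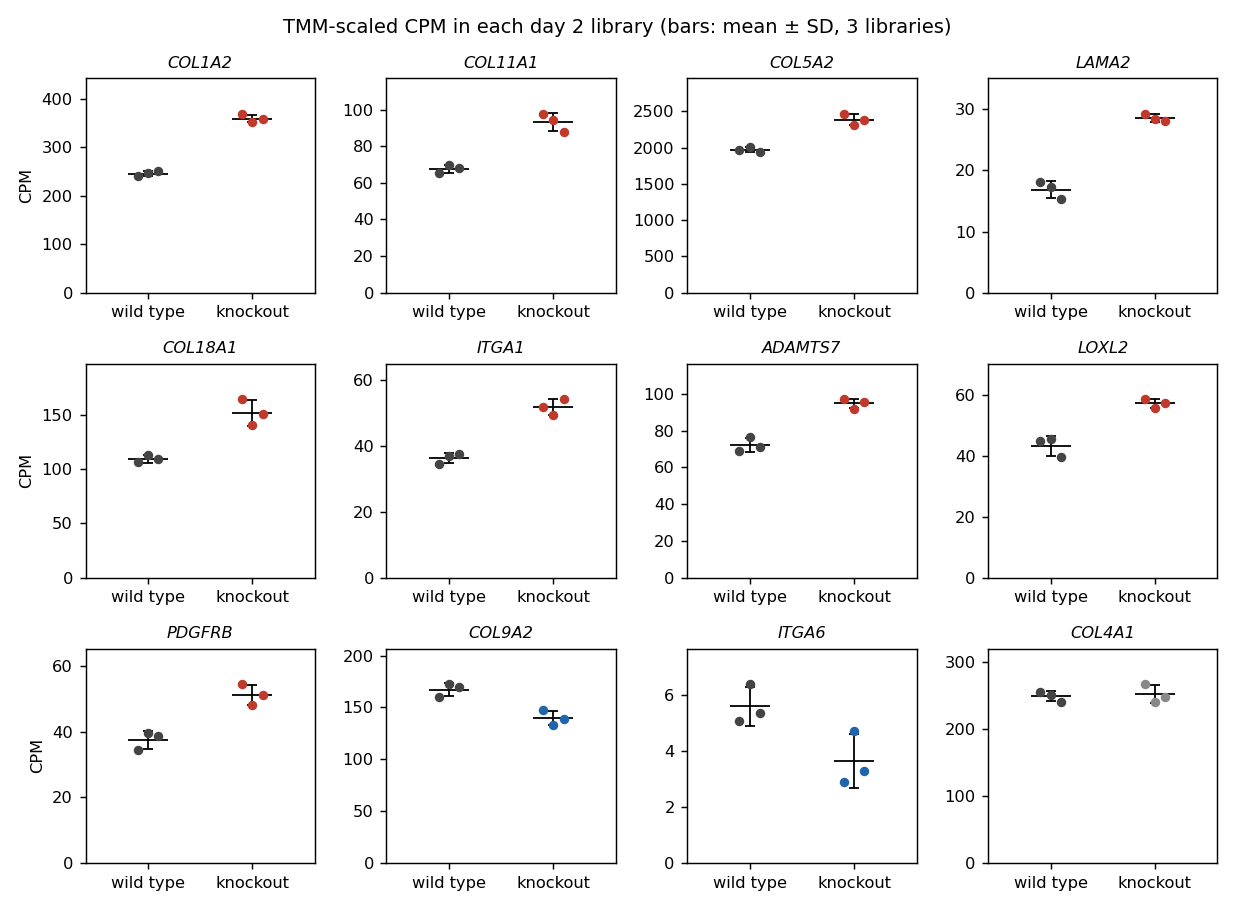
TMM-scaled CPM (vertical axes, each from 0) of 12 matrix genes in each day 2 library, with the mean and SD of 3 libraries per genotype. KO points lie above every wild-type point in the first 9 panels, below in the COL9A2 and ITGA6 panels, and among them in the COL4A1 panel.

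Of the basement membrane and network collagens, 1 of 5 was called. COL18A1, a collagen that carries heparan sulfate and whose end fragment is endostatin, had 106, 113 and 109 CPM in the wild type and 164, 140.0 and 150.1 CPM in the KO. The log2 fold change was 0.47 (SE 0.046, adjusted p = 1.7e-08). Another gene, SLC19A1, overlaps 16.4% of its exon length on the opposite strand, and since the strand setting of the counting is not given in the sources used here, its reads could be shared. The type IV collagens, which form the sheet of every basement membrane, did not pass the test. COL4A1 had 255, 249.7 and 240.3 CPM against 266, 239.8 and 247 CPM in the KO, and the genotypes overlapped (log2 fold change 0.02, SE 0.036). COL4A2 had 176, 179 and 184 CPM against 187, 174 and 175 CPM (log2 fold change -0.01, SE 0.036). The signs of both values near 0 turned with the settings, and with GC and length trends removed COL4A2 was called lower (log2 fold change -0.10, adjusted p = 0.00586). By the RefSeq starts these genes lie head to head, 127 bases apart, on chromosome 13. COL4A5 and COL4A6, which start 380 bases apart on the X chromosome, had log2 fold changes of 0.11 (adjusted p = 0.122) and 0.15 (adjusted p = 0.0714). COL4A6 was higher in all 3 KO libraries (32.2, 31.8 and 34.6 CPM, against 29.8, 30.4 and 28.3 CPM) without passing the test.

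Among the 13 other collagens, which decorate fibrils, form beaded filaments or span the membrane, 5 were higher and 1 lower, with a median log2 fold change of 0.23. The chains of type IX collagen, a coat of cartilage fibrils, went in opposite directions. COL9A3 rose from 44.3, 43.0 and 45.5 CPM to 64.4, 60.03 and 57.0 CPM (log2 fold change 0.45, adjusted p = 6.3e-08). COL9A2 fell from 159.7, 172 and 169.9 CPM to 147, 133 and 139 CPM (log2 fold change -0.26, SE 0.039, adjusted p = 5.31e-06). Neither gene had overlapping genotypes. The membrane collagen COL13A1 rose from a mean of 129 ± 3.80 CPM to 152 ± 4.37 CPM (SD, n = 3; log2 fold change 0.23, edgeR adjusted p = 1.38e-05). COL16A1, a fibril-associated collagen, rose from 29.4 ± 2.12 to 37.7 ± 1.68 CPM (SD, n = 3; log2 fold change 0.36, edgeR adjusted p = 4.68e-05). COL25A1 and COL26A1 were the other 2 called higher, and COL25A1 lost its call without wild-type replicate 1 or 3.

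Type VI collagen, the beaded filament of the space around cells, was not called. COL6A1 had 862, 875 and 876 CPM in the wild type and 858, 809 and 822 CPM in the KO, so every KO library was slightly below every wild-type library (log2 fold change -0.07, adjusted p = 0.0923). Without KO replicate 1 it was called lower, as it was with GC and length trends removed. COL6A2, its neighbor on chromosome 21, had 280.2, 281 and 282 CPM against 296, 275 and 289 CPM (log2 fold change 0.03, adjusted p = 0.598).

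The laminins and their basement membrane partners had 8 of 11 members higher and none lower, with a median log2 fold change of 0.22. Laminins are cross-shaped assemblies of an alpha, a beta and a gamma chain. LAMA2 (chr6:128883141-129516569, plus strand), the alpha chain typical of muscle basement membrane, had the highest fold change of all matrix genes. It stood at 18.1, 17.3 and 15.3 CPM in the wild type and at 29.2, 28.4 and 28.0 CPM in the KO. The gap between the genotypes was wider than the spread within either, and the log2 fold change was 0.76 (SE 0.073, adjusted p = 9.42e-10). Its level was low for its length, at 1.63 CPM per kilobase in the wild type against 28.5 for LAMB1.

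The beta chain LAMB1, the highest per kilobase of the laminin chains called, rose from 235, 229 and 231 CPM to 273, 264 and 271 CPM (log2 fold change 0.22, SE 0.032, adjusted p = 3.33e-06). The gamma chain LAMC3 rose from 81.3, 78.5 and 81.5 CPM to 103, 92.7 and 100.5 CPM (log2 fold change 0.30, adjusted p = 4.16e-06). The other chains were mixed: LAMA5, an alpha chain of many epithelia, was higher (log2 fold change 0.35, adjusted p = 4.37e-06; 0.22 with GC and length trends removed), while LAMC1 and LAMB2 had log2 fold changes of -0.02 and 0.01 and were not called. LAMA1, the alpha chain of the early embryo, had a log2 fold change of 0.13 (adjusted p = 0.0356), and its KO libraries of 150.4, 138 and 129.8 CPM overlapped the wild-type libraries of 128, 133 and 122.6 CPM. Its call was lost without wild-type replicate 1, without wild-type replicate 3, without KO replicate 1, in DESeq2 and with GC and length trends removed. Transcripts on the opposite strand overlap 11.1% of its exon length.

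The heparan sulfate proteoglycans that link laminin to other partners also rose. AGRN, which encodes agrin, had 95.5, 99.2 and 90.8 CPM in the wild type and 139, 120.5 and 127 CPM in the KO (log2 fold change 0.44, SE 0.046, adjusted p = 2.39e-08). KO replicate 1 was the highest here too, and without it the log2 fold change was 0.38. HSPG2, which encodes perlecan, had a log2 fold change of 0.30 (adjusted p = 3.1e-05; 0.16 with GC and length trends removed), with LDLRAD2 overlapping 11.7% of its exon length on the opposite strand. NID1, the nidogen that ties laminin to type IV collagen, had a log2 fold change of 0.21 (adjusted p = 0.00223), and NID2 was at 2.46 to 3.90 CPM over all libraries and not called. COL1A1, LAMA5, HSPG2, LAMA1 and NID1 were described after their values were seen.

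**Figure D3:**
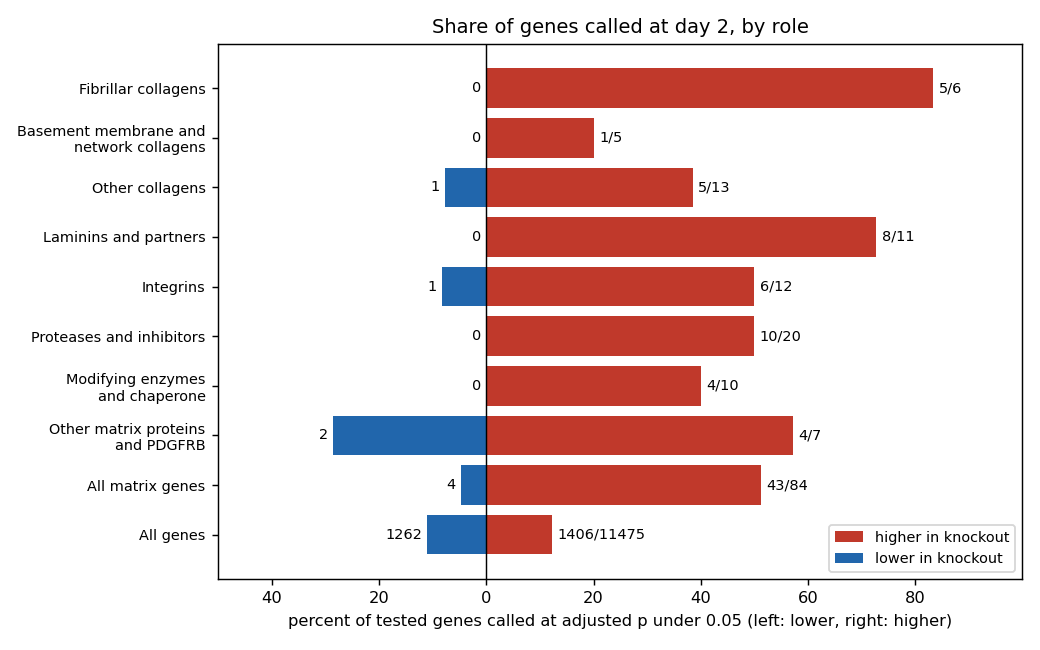
Percent of tested genes called at day 2 in each role group (horizontal axis; right of 0 higher, left of 0 lower in the KO), with counts beside the bars. The fibrillar collagens (5 of 6) and laminins (8 of 11) had the longest bars to the right, the basement membrane and network collagens (1 of 5) the shortest, and all genes tested stood at 12.3% higher and 11% lower.

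Of the 12 integrin genes tested, 6 were higher and 1 lower, with a median log2 fold change of 0.20. Of the 9 alpha chains 5 were higher and 1 lower, and of the 3 beta chains 1 was higher; the difference between alpha and beta chains was not tested. ITGA1, which pairs with the ITGB1 chain to bind collagens, had 34.6, 36.8 and 37.6 CPM in the wild type and 52.0, 49.5 and 54.2 CPM in the KO. The libraries did not overlap, and the log2 fold change was 0.51 (SE 0.056, adjusted p = 1.4e-08). Other genes, among them PELO on the same strand, overlap 6.86% of the ITGA1 exon length, and reads there could be shared. ITGA8, a receptor chain for proteins with the RGD sequence, rose from 6.33, 6.98 and 7.63 CPM to 10.7, 10.02 and 11.9 CPM (log2 fold change 0.63, SE 0.113, adjusted p = 6.21e-05).

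The laminin-binding alpha chains ITGA7 and ITGA6 went in opposite directions. ITGA7 rose from 11.6, 11.5 and 11.5 CPM to 15.3, 16.6 and 13.4 CPM (log2 fold change 0.40, adjusted p = 0.00163). ITGA6 (chr2:172427354-172506282, plus strand), which is characteristic of pluripotent and epithelial cells, had 5.06, 6.39 and 5.37 CPM in the wild type and 2.90, 4.72 and 3.29 CPM in the KO. The highest KO library was just below the lowest wild-type library, and the log2 fold change of -0.63 (SE 0.169, adjusted p = 0.0057) was no longer called without wild-type replicate 2. ITGA9, a receptor chain for tenascin, rose from 169 ± 3.09 to 199.8 ± 8.81 CPM (SD, n = 3; log2 fold change 0.24, edgeR adjusted p = 4.74e-06), and ITGA4, a fibronectin and VCAM1 receptor chain named after its values were seen, had a log2 fold change of 0.35 (edgeR adjusted p = 0.00181).

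ITGB1, the shared partner of these alpha chains and the highest integrin gene per kilobase, had 562, 564 and 542 CPM in the wild type and 590.0, 598 and 601 CPM in the KO. The libraries did not overlap, but the log2 fold change was only 0.10 (SE 0.030, adjusted p = 0.013). This call was lost without wild-type replicate 3 and without KO replicate 3, and with the replicate number as a block. ITGB5, which pairs with the alpha-V chain to bind vitronectin, had a log2 fold change of 0.00 (SE 0.031) at 521 ± 10.8 and 523 ± 11.6 CPM (SD, n = 3).

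Among the 20 proteases and inhibitors, 10 were higher and none lower, with a median log2 fold change of 0.21. By family, 8 of 10 ADAMTS genes, 1 of 7 MMP genes and 1 of 3 TIMP genes rose, and the difference between families was not tested. With GC and length trends removed MMP15 was called lower (log2 fold change -0.17, adjusted p = 0.000653, against -0.09 and 0.2 otherwise). ADAMTS7, an enzyme that cuts cartilage oligomeric matrix protein, had 69.0, 76.7 and 70.9 CPM in the wild type and 97.1, 91.8 and 95.5 CPM in the KO. All KO libraries were higher, with a log2 fold change of 0.39 (SE 0.045, adjusted p = 3.75e-08). ADAMTS9, which cuts versican and aggrecan, rose from 67.6, 66.4 and 64.4 CPM to 79.7, 76.5 and 79.6 CPM (log2 fold change 0.25, adjusted p = 6.74e-05).

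ADAMTS12 rose from 17.5, 15.6 and 16.6 CPM to 23.7, 20.1 and 21.5 CPM (log2 fold change 0.40, adjusted p = 0.000279). ADAMTS10, which binds fibrillin, rose from 11.4, 10.9 and 10.9 CPM to 15.9, 13.0 and 15.7 CPM (log2 fold change 0.43, adjusted p = 0.000963). The genotypes did not overlap for either. The MMP gene that rose was MMP25, a membrane-anchored metalloproteinase, with 7.53, 8.35 and 7.86 CPM against 10.1, 11.6 and 11.3 CPM (log2 fold change 0.47, SE 0.107, adjusted p = 0.00126). MMP25-AS1 overlaps 35.2% of its exon length on the opposite strand, and its reads could be shared there. MMP14, the membrane metalloproteinase that activates MMP2 and the highest protease gene per kilobase, had 668, 668 and 673 CPM against 709, 691 and 693 CPM. Its KO libraries were all slightly higher, and the log2 fold change of 0.06 (adjusted p = 0.144) was not called.

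Of the 10 collagen-modifying enzymes and chaperone, 4 were higher and none lower, with a median log2 fold change of 0.12. LOXL2, a lysyl oxidase that cross-links type IV collagen, rose from 45.0, 45.5 and 39.6 CPM to 58.7, 55.8 and 57.6 CPM (log2 fold change 0.40, SE 0.055, adjusted p = 1.05e-06). LOX, which cross-links fibrillar collagen and elastin, rose from 10.9, 10.9 and 11.01 CPM to 13.8, 13.9 and 14.2 CPM (log2 fold change 0.35, adjusted p = 0.0041). The genotypes did not overlap for either. The other lysyl oxidases tested, LOXL1 and LOXL3, had log2 fold changes of 0.10 and 0.01 and were not called. Of the 5 prolyl and lysyl hydroxylases 2 were called: PLOD2, which makes the lysine cross-link sites of collagen ends, went from 149, 163 and 157 CPM to 169, 177 and 178 CPM (log2 fold change 0.16, adjusted p = 0.00165). P4HA1, a prolyl hydroxylase that stabilizes the collagen helix, went from 79.2, 77.9 and 74.9 CPM to 90.3, 87.1 and 81.4 CPM (log2 fold change 0.16, adjusted p = 0.00869), a call lost without wild-type replicate 3. The collagen chaperone SERPINH1 was the highest of the group per kilobase and was not called, with 931, 938 and 950.2 CPM against 924, 927 and 945 CPM. With GC and length trends removed, SERPINH1 (log2 fold change -0.08, adjusted p = 0.00758) and the lysyl hydroxylase PLOD3 (-0.15, adjusted p = 0.0224) were called lower, which gave the group 4 higher and 2 lower.

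The remaining 7 members were mixed, with 4 higher and 2 lower. PDGFRB, the receptor for PDGF-B found on mesenchymal cells, rose from 34.4, 39.6 and 38.8 CPM to 54.5, 48.1 and 51.2 CPM (log2 fold change 0.45, SE 0.060, adjusted p = 6.91e-07). The fibrillins, which build microfibrils, went in opposite directions. FBN2, the fibrillin of the embryo, had 2029.6, 2041 and 2006 CPM in the wild type and 2417, 2198 and 2241 CPM in the KO (log2 fold change 0.17, SE 0.031, adjusted p = 7.38e-05). FBN1, the fibrillin of adult tissue, had 99.9, 104 and 102 CPM against 96.3, 85.6 and 88.8 CPM (log2 fold change -0.18, SE 0.044, adjusted p = 0.00277). Neither fibrillin had overlapping genotypes, and per kilobase FBN2 was at 154 CPM in the wild type and FBN1 at 6.36 CPM.

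VCAN, which encodes the proteoglycan versican, rose from 305, 319.7 and 316 CPM to 368, 346 and 344 CPM (log2 fold change 0.17, adjusted p = 0.000208). LUM, which encodes the collagen-binding proteoglycan lumican, had few counts and fell from 4.99, 7.29 and 5.81 CPM to 3.32, 4.72 and 4.20 CPM (log2 fold change -0.57, SE 0.160, adjusted p = 0.00773). Its call was lost without wild-type replicate 2 and without KO replicate 1. SPARC, a matrix-binding glycoprotein and the highest member per length (297 CPM per kilobase in the wild type), had a log2 fold change of 0.04 and was not called.

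The wild-type levels per kilobase of exon at day 2 ran from SPARC at 297 CPM and COL5A2 at 265 CPM through COL6A1 at 163, FBN2 at 154, COL5A1 at 151, MMP14 at 150.0 and SERPINH1 at 149.6, to ITGB1 at 92.5 and ITGB5 at 80.9. Of these 9 genes, COL5A2, FBN2, COL5A1 and ITGB1 rose, and the others were not called.

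The matrix genes were longer and richer in G and C than other genes, with a median exon length of 7.21 kb against 5.17 kb and a median GC content of 54.6% against 49.1%. Over all genes, calls of higher expression were also more frequent among the longest of 5 equal groups (18.2%, against 7.92% among the shortest) and among the group of highest GC content (15.6%, against 8.59% in the lowest). With the trends on GC content and length removed from each library, an alternative chosen after the data were seen, 43 matrix genes were called higher and 9 lower, and over all genes 1279 were higher and 2006 lower in place of 1406 and 1262. The 5 matrix genes called lower in that fit but not in the main fit were COL4A2, COL6A1, MMP15, PLOD3 and SERPINH1. Of these, COL6A1 was also called lower without KO replicate 1. Of the 47 genes called otherwise, the log2 fold change of 4, COL5A1, HSPG2, LAMA1 and LAMA5, moved by over 1.5 times, each towards 0.

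At day 0, more matrix genes were lower than higher in the KO. With 1 library per genotype there is no replicate check and no test, and a gene is called past the threshold when log2((KO FPKM + 1)/(wild-type FPKM + 1)) exceeds a 1.5-fold ratio. Of 105 matrix genes, 92 reached 1 FPKM in either library. Among these 6 were higher and 13 lower in the KO library, 6.52% and 14.1%, where 4.81% and 8.77% of all 13284 genes were past the threshold in those directions, 13.6% in all. The KO value was below the wild-type value for 57 of the 92, and the median log2 ratio was -0.09 for matrix genes and -0.03 for all genes. A fold change on this scale understates the change of low genes, and with a pseudocount of 5 FPKM in place of 1 the counts were 2 higher and 4 lower (2.17% and 4.35%, against 2.03% and 2.6% of all genes).

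The collagens at day 0 included 7 of 28 that were lower and none that were higher. Type I collagen was lower in the KO library, with COL1A1 at 55.0 against 34.1 FPKM. COL1A2 fell just inside the 1.5-fold limit, at 43.4 and 28.8 FPKM (log2 ratio -0.58). The paired genes COL4A5 (14.2 and 8.09 FPKM) and COL4A6 (8.36 and 4.63 FPKM) were lower by nearly the same log2 ratio, -0.74 and -0.73, while COL4A1 (21.2 and 22.5 FPKM) and COL4A2 (27.8 and 26.1 FPKM) were close to equal. COL6A3, the long chain of type VI collagen, was at 5.36 and 2.62 FPKM, and COL9A2 was at 4.91 and 2.22 FPKM.

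FBN2 had the lowest log2 ratio of the matrix genes at day 0, -1.06, from 12.8 FPKM in the wild type to 5.62 in the KO. SPARC, the most abundant matrix gene of the wild-type library, was at 125 and 80.6 FPKM, LOXL2 at 32.2 and 19.2 FPKM, and NID2 at 9.53 and 4.91 FPKM. RTRAF overlaps 30.0% of the NID2 exon length on the opposite strand. MMP24, a membrane metalloproteinase listed at day 0 only, was at 8.84 and 5.41 FPKM, with 21.8% of its exon length overlapped by other genes.

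The 6 genes that were higher at day 0 included 3 ADAMTS proteases. ADAMTS1, which cuts versican, had 2.70 FPKM in the wild-type library and 6.13 FPKM in the KO library (log2 ratio 0.95), and ADAMTS16 was at 1.46 and 4.24 FPKM. ADAMTS13 was listed at 0 in the wild type and at 1.43 FPKM in the KO. ITGB5 was at 83.9 and 139.9 FPKM (log2 ratio 0.73), VCAN at 24.8 and 41.1 FPKM (log2 ratio 0.71) and LAMA4 at 0.820 and 1.87 FPKM. COL5A2, at 7.49 and 11.6 FPKM (log2 ratio 0.57), fell just short of the threshold, as did PLOD2 at 11.3 and 16.4 FPKM. Of members listed at day 0 only, COL9A1 (14.5 and 9.89 FPKM), COL14A1 (12.7 and 13.2 FPKM) and COL2A1 (6.38 and 5.85 FPKM) were not past it.

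**Figure D4:**
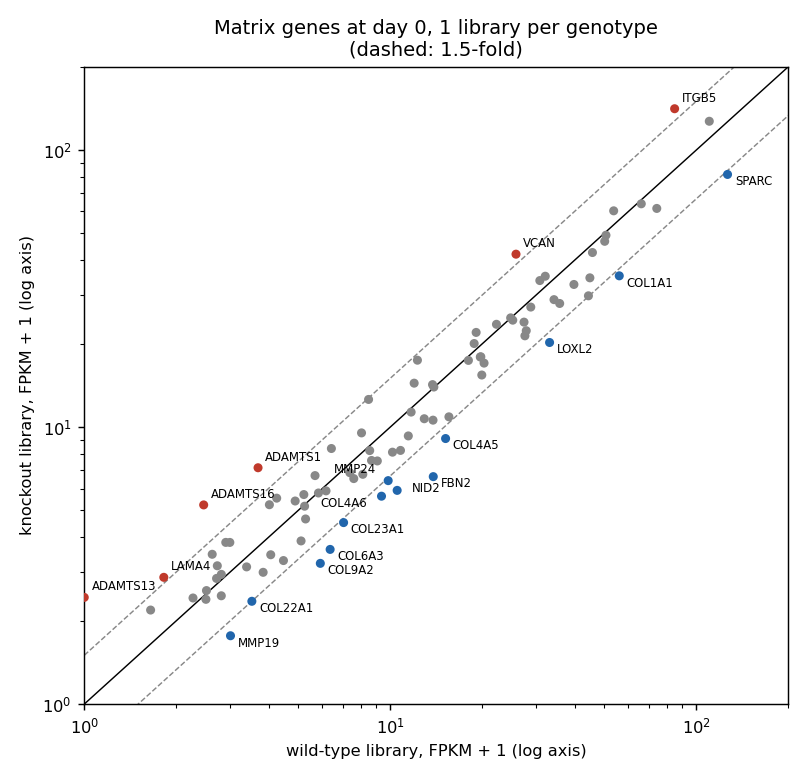
FPKM + 1 of 92 matrix genes at day 0 in the KO library (vertical log axis) against the wild-type library (horizontal log axis), 1 library each, with dashed lines at 1.5-fold. The 13 named points below the lower line include COL1A1, LOXL2, FBN2 and SPARC, and the 6 above the upper line include ITGB5 and VCAN.

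The days were set side by side for the 76 matrix genes measured on both. The tables were made and scaled separately, and only the ratio of KO to wild type within each day was compared. The ratio had the same sign on both days for 33 of 76 (43.4%), and 43.6% of 10994 genes overall did so. Pearson's r of the day 0 and day 2 log2 values across these genes was 0.17 and Spearman's rho 0.16 (-0.14 and -0.16 across all genes), given as a description since genes of the same libraries are not independent. Of the 39 genes that rose at day 2 and were measured at day 0, 22 were below the wild type at day 0 (56.4%) and 17 above, and 62.4% of the 1294 such genes overall were below.

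COL1A1, LOXL2 and FBN2 were past the 1.5-fold limit downwards at day 0 and rose at day 2, and COL1A2 was near it. These 3 are 7.69% of the 39, and 11.9% of the 1294 genes overall had that pattern. VCAN and ADAMTS1 were the 2 of the 39 that were past the 1.5-fold limit upwards at day 0. The share of all genes with that pattern was not counted. At day 2 ADAMTS1 had 83.5, 87.7 and 87.2 CPM in the wild type and 102, 95.7 and 96.6 CPM in the KO (log2 fold change 0.19, adjusted p = 0.00113). COL9A2 was lower on both days. LAMA2 was at 1.90 and 2.83 FPKM at day 0, in the direction of day 2, and ITGA6 was at 34.8 and 26.9 FPKM, also in the direction of day 2.

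**Figure D5:**
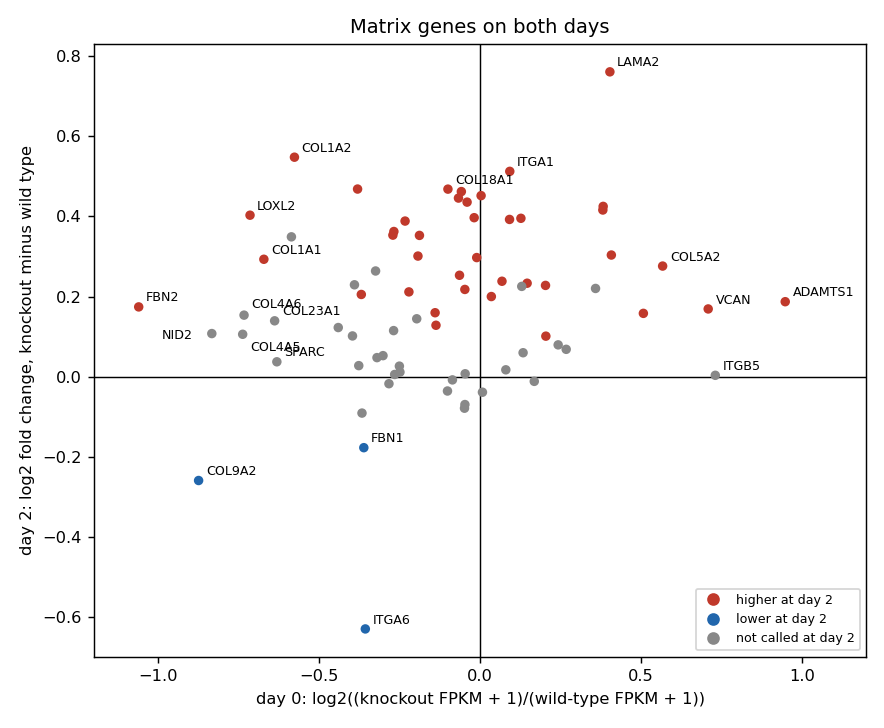
Log2 ratio of KO to wild type at day 0 (horizontal axis, 1 library each) against the fitted log2 fold change at day 2 (vertical axis, 3 libraries each) for the 76 matrix genes measured on both days. Red points, higher at day 2, lie on both sides of 0 at day 0, with FBN2, LOXL2, COL1A1 and COL1A2 at the left and VCAN and ADAMTS1 at the right.

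Genes of the same pathways outside the rule were counted in the same day 2 fit, in which 12.3% of all genes were higher and 11% lower. The counts of these lists were not tested against those shares. Of 16 genes for collagen folding, export and maturation, 4 were higher and none lower. PCOLCE, which enhances the cutting of procollagen ends, rose from 17.0 ± 1.96 to 24.6 ± 1.59 CPM (SD, n = 3; log2 fold change 0.53, edgeR adjusted p = 5.51e-06), while FKBP10 and P3H1 had log2 fold changes of 0.19 and 0.17. Of 28 other matrix and matricellular genes, 12 were higher and 2 lower. Among them CTGF and CYR61, secreted proteins that bind integrins, had log2 fold changes of 0.60 (adjusted p = 2.5e-12) and 0.50 (adjusted p = 3.26e-10), and GPC4, a membrane heparan sulfate proteoglycan, had 0.29. The 2 lower were MFAP4 (log2 fold change -0.10, edgeR adjusted p = 0.0208) and TNC (-0.13, edgeR adjusted p = 0.00603). The other 14, among them FN1 (log2 fold change -0.02), were not called. MFAP4, TNC and FN1 were named after their values were seen.

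Of 21 further matrix receptors and adhesion adaptors, 7 were higher and 1 lower, with a median log2 fold change of -0.02. DDR2, a collagen receptor kinase, had 23.4, 22.8 and 22.3 CPM against 36.5, 30.6 and 29.6 CPM (log2 fold change 0.50, adjusted p = 2.59e-06), CD47, a membrane protein that associates with integrins, had a log2 fold change of 0.47 and PTK2, the focal adhesion kinase, 0.14. Among genes of TGF-beta signaling, SMAD3, which carries the signal to the nucleus, rose (log2 fold change 0.34, adjusted p = 2.66e-05) and the feedback inhibitor SMAD7 fell (log2 fold change -0.21, adjusted p = 0.000195).

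Markers of cell types that a day 2 culture could hold were counted in the same fit, where 12.3% of all genes were higher and 11% lower. The lists are short, and their counts were not tested against those shares. Of 6 tested fibroblast or stromal markers that are not matrix genes, 3 were higher (PDGFRA, S100A4 and TAGLN) and none lower, and their summed level was 454.9 to 467.9 CPM in the wild type and 536.8 to 550.9 CPM in the KO. TCF21 and PRRX1, of that list, are not in the day 2 table. Of the endothelial markers, PECAM1, CDH5, TIE1, ERG, ESAM and EMCN are not in the day 2 table, and TEK was higher (15.6 to 15.99 CPM in the wild type and 23.1 to 27.3 CPM in the KO). The amnion and trophoblast markers in the table, GATA3, ISL1 and TFAP2C, were all lower, at a summed 49.4 to 50.6 CPM in the wild type and 38.1 to 39.7 CPM in the KO. Of 6 endoderm markers 1 was higher and 2 lower, of 7 mesoderm markers 2 were higher and 3 lower, of 3 neural crest markers 1 was higher and 1 lower, and of 6 markers of pluripotent cells 1 was higher and 1 lower. The summed mesoderm markers stood at 2767 to 2826 CPM in the wild type and 2873 to 2908 CPM in the KO. Of these, MIXL1 (mean 1467 and 1568 CPM) and KDR (693 and 753 CPM) were higher, and T, HAND1 and FOXF1 lower. The endoderm sum was 8670 to 8790 and 9502 to 9654 CPM, most of it from CER1, at a mean of 7482 and 8432 CPM. CER1 was the endoderm marker called higher, so this sum does not stand for the list. SOX17 (mean 151 and 102 CPM) and PRDM1 (18.9 and 11.4 CPM) were the endoderm markers called lower. The pluripotent sum was 2132 to 2165 and 2188 to 2247 CPM. Cultures of both genotypes thus expressed genes of each of these lists. The part of these markers in the matrix gene result was not tested.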

How the data were processed

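RNA from 8 H1 samples was sequenced by the submitters from libraries of a SMARTER mRNA-Seq kit, per the labels. The submitters' processing notes name HISAT2, StringTie, GRCh38 and hg38; their versions, the annotation and the strand setting are not stated there. The deposited day 2 table holds raw counts per gene (3 libraries per genotype) and the deposited day 0 table holds FPKM (1 library per genotype). Day 2 counts were fitted with edgeR 4.0.16 in R 4.3.3 (filterByExpr, TMM, robust quasi-likelihood, genotype only, Benjamini-Hochberg over 11475 genes, threshold 0.05), checked first on simulated counts. CPM values are TMM-scaled. Day 0 ratios used a pseudocount of 1 FPKM, at least 1 FPKM in either library, and no test. Symbols were matched to GENCODE 29 (98.9% of the day 2 table, 107 of 107 members). Named genes were, in each role group, up to 4 called members of smallest p and the member of highest CPM; the 6 highest and 6 lowest called fold changes above 5 CPM; 4 neighboring pairs; the 6 highest and lowest day 0 ratios above 5 FPKM and the 4 highest members listed at day 0 only; and up to 3 called genes per related list. Other members are named after their values were seen, and the counts of the TGF-beta list are not reported here. Members, role groups and lists were chosen with earlier results of these data known. Alternatives were other scalings, filters and tests (DESeq2 1.42.0, limma 3.58.1), a replicate block, a 1.2-fold minimum, each library left out, other day 0 pseudocounts and filters, and, added after seeing the data, GC and length offsets.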

Additional observations from a re-analysis of the deposited data

Results flagged for a closer look

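Of the 39 matrix genes that were called higher at day 2 and measured at day 0, 22 were below the wild type at day 0, and 3 of them by more than 1.5-fold (7.69%). Over all genes 154 of 1294 (11.9%) were so. COL1A1 had a log2 ratio of KO to wild type of -0.67 at day 0 (55.0 FPKM in the wild type, 34.1 in the KO) and a log2 fold change of 0.29 at day 2 (edgeR adjusted p = 2.79e-05). LOXL2 had -0.72 at day 0 (32.2 and 19.2 FPKM) and 0.40 at day 2 (edgeR adjusted p = 1.05e-06). FBN2 had -1.06 at day 0 (12.8 and 5.62 FPKM) and 0.17 at day 2 (edgeR adjusted p = 7.38e-05). For each of the 3, the KO library was below the wild type by more than 1.5-fold at day 0, and all 3 KO libraries were above all wild-type libraries at day 2. Day 0 has 1 library per genotype, and the difference between the days was not tested.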

How the results depend on the processing

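The main limits are the small size of the day 2 changes, the lack of replicates at day 0 and the tilt of matrix genes towards long, GC-rich transcripts. No called matrix gene changed direction under any of 9 other fits or 6 left-out libraries. Leaving out 1 library at a time gave 39 to 45 matrix genes higher and 2 to 4 lower, the 2 without wild-type replicate 2; 36 of the 43 higher calls and 2 of the 4 lower calls held each time. Against a minimum change of 1.2-fold (edgeR glmTreat), 10 stayed higher (COL1A2, COL11A1, COL18A1, COL9A3, LAMA2, AGRN, ITGA1, ITGA8, ADAMTS7 and PDGFRB) and 0 lower (2 at an unadjusted p under 0.05), with 192 higher and 54 lower over all genes; without that minimum 4 were lower in each of the edgeR, DESeq2 and limma tests. With GC and length trends removed, 43 were higher and 9 lower, and 1279 higher and 2006 lower over all genes (1406 and 1262 otherwise). Genes near 0 changed sign: COL4A1 to -0.0471, COL6A2 to -0.0617 and COL27A1 to -0.0366 with GC and length trends removed, COL4A2 to 0.0073 and SERPINH1 to 0.0038 with upper-quartile scaling, and, with 1 library left out, COL4A1 ranged from -0.0247 (without KO replicate 1) to 0.0486 and COL4A2 from -0.0395 to 0.00901. With upper-quartile scaling all genes split into 1605 higher and 1010 lower. The replicate numbers are shared between genotypes, and deviations of same-numbered libraries were not positively correlated (-0.0728, -0.0721 and -0.0373). These values cannot show whether same-numbered libraries were made together. With a replicate block 42 matrix genes were higher and 4 lower (ITGB1 lost its call, edgeR adjusted p = 0.051), and 1205 higher and 1005 lower over all genes. At day 0, a pseudocount of 5 FPKM left 2 higher and 4 lower, and a minimum of 5 FPKM left 3 higher and 10 lower of 63 (4.76% and 15.9%, against 5.07% and 7.93% of all genes). The cause of these shifts was not tested.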
